A study of Mus musculus with 2 samples.

Results

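Semaphorins, plexins, ephrins and Eph receptors are guidance ligands and their receptors, and their transcripts were followed here across the cell types of a residual liver tumour area in mice. Members were the genes whose symbol starts with Sema and a digit, Plxn, Epha, Ephb, Efna or Efnb and that had at least 20 UMIs (unique molecular identifiers, each counting 1 captured RNA molecule) in the processed matrix. Of 54 such genes, 53 passed, out of 32285 genes in the matrix and 19683 genes with the same minimum. They were 20 semaphorins, 9 plexins, 8 EphA and 5 EphB receptors, 5 ephrin-A and 3 ephrin-B ligands, and 3 transcripts antisense to Plxna4 that share its prefix. Plxnb3 and Plxna4os1 passed with 22 and 23 UMIs, while Epha8 had 1 UMI and was left out.

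Nuclei came from frozen mouse liver carrying hepatocellular carcinoma (HCC), from a microdissected area of minimal residual disease, and were profiled by droplet sequencing of the 3' ends of nuclear RNA. The labels list 2 samples of 1 group, MRD-HCC 1 and MRD-HCC 2, and name neither strain, genotype, age, treatment nor the means by which tumours arose. The counts form 1 matrix whose barcodes name no sample, so animals cannot be told apart, no value has replicates and no test between samples was possible. All intervals below are 95% intervals that cover counting error only.

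Semaphorins are secreted or membrane-bound ligands that act through plexins, which carry a GTPase-activating domain inside the cell, and the secreted class 3 members mostly need neuropilins as co-receptors. Eph receptors are tyrosine kinases that bind ephrins on a neighbouring cell, and the ephrin itself can signal back into the cell that carries it. Ephrin-A ligands are held by a lipid anchor and mostly bind EphA receptors, whereas ephrin-B ligands span the membrane and mostly bind EphB receptors and EphA4. Both systems were first known from growing axons and also pattern blood vessels, where ephrin-B2 and EphB4 mark arteries and veins.

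The letters just upstream of 4 members that the results turn on are shown because the results concern where their transcripts stood: Sema5a and Efna5 between groups of tumour nuclei, Ephb2 in tumour nuclei with fetal liver genes, and Ephb1 in endothelial nuclei. The genes lie at chr15:32244810-32696341 (Sema5a), chr17:62604184-62881317 (Efna5), chr4:136647539-136835988 (Ephb2) and chr9:101922128-102354693 (Ephb1) in GENCODE M21 on GRCm38. Each run holds the 250 bases before the gene's start in RefSeq on GRCm38.p6, 5′ to 3′ in the direction of the gene, and for Sema5a and Ephb2 that start is not the one GENCODE gives. Capitals mark matches to GGGCGG (a GC box), CCAAT or TATAAA on either strand, and matches that overlap were counted separately.
Sema5a, chr15:32244563-32244812, plus strand: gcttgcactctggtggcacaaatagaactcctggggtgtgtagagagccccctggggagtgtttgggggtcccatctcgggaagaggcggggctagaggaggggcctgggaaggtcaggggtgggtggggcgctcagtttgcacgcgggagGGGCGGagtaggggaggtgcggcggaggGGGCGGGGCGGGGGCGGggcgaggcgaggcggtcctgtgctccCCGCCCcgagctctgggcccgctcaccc
Efna5, chr17:62881318-62881567, minus strand: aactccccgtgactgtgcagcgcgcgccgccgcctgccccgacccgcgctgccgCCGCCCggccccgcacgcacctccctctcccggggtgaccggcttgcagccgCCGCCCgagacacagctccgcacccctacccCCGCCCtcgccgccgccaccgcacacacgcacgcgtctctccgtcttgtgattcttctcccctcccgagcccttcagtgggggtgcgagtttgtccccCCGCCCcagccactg
Ephb2, chr4:136836013-136836262, minus strand: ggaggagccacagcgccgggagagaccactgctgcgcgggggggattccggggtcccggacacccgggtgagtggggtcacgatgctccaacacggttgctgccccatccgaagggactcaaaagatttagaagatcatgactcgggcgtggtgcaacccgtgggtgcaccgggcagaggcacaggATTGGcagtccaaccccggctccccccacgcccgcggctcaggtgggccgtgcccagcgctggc
Ephb1, chr9:102354694-102354943, minus strand: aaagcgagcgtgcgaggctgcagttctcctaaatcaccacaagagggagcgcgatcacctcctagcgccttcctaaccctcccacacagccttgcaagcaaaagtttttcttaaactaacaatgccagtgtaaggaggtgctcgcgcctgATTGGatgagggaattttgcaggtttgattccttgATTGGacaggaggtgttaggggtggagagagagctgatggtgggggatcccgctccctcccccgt
Sema5a had 5 and Efna5 had 4 GGGCGG matches and neither had a CCAAT match. Ephb2 and Ephb1 had no GGGCGG match but 1 and 2 CCAAT matches, all on the opposite strand. Of the 54 genes with these prefixes, Epha8 included, 45 matched an entry, with 59 promoters in all. GGGCGG stood in 74.58% of those promoters, against 32.74% of all 32851 promoters of the same length. CCAAT stood in 32.2% against 33.85%, and TATAAA in 1.695% against 12.37%. The member promoters also had a median GC content of 64%, against 52.4% over all promoters.

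Nuclei were sorted into 6 classes by marker genes that exclude the members. A marker counted as present when its UMIs exceeded what free RNA would give (Poisson probability under 0.01), and a class needed at least 3 present markers and no other class with more than 50% of that number. Of 16411 nuclei that passed the filters, 5284 fell in 1 class. There were 1213 tumour, 305 ductal, 1218 hepatocyte, 1074 stromal, 776 endothelial and 698 immune nuclei, with median depths of 8152, 3870, 17713, 3440, 3845.5 and 2909 UMIs. Tumour nuclei came from a list with Hmga2, Dclk1 and Peg3 (891 Pkhd1-high nuclei), from a list with Gpc3, H19 and Afp (188 hepatocyte-like nuclei), or from both (134). The gate's own markers define the classes and so cannot check them. Of those markers, ductal Krt19, at 17 CPM, did not exceed the 17.5 CPM of free RNA, nor did hepatocyte Plg, at 1105 CPM, the 1137 CPM of free RNA. Pkhd1, which was no gate marker, stood at 2778 CPM in tumour, 5110 CPM in ductal and 154 CPM in hepatocyte nuclei. In 566 of the 1213 tumour nuclei and 152 of the 305 ductal nuclei the gate was met with exactly 3 markers.

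Levels are UMIs scaled to the class total (CPM) and are compared between classes for 1 gene at a time. Free RNA, measured in 49929 uncalled barcodes, is given beside a level where it matters. Haemoglobin, an erythroid transcript, stood in tumour, ductal, hepatocyte, stromal, endothelial and immune nuclei at 13.4%, 20.04%, 7.53%, 28.5%, 31.3% and 29.8% of its free RNA level. Scrublet called 323 doublets among the 9632 nuclei with at least 2000 UMIs, and between 2 and 36 of them fell in each class. They were kept, and leaving them out is among the alternatives.

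The vessel wall and the stroma held the highest levels of most members. The highest of the 6 levels lay in endothelial nuclei for 17 members and in stromal nuclei for 15, together 32 of 53 (60.4%), against 27% of all 19683 genes tested. Ductal nuclei were highest for 8 members, immune nuclei for 5, and tumour and hepatocyte nuclei for 4 each. By background the shares of all genes were 13.7% endothelial, 13.3% stromal, 19.6% ductal, 16.9% immune, 19% tumour and 17.6% hepatocyte. For 26 members (49.1%) the highest class exceeded the second by at least 2-fold, against 19.8% of all genes. These were 10 endothelial, 8 stromal, 3 hepatocyte, 2 ductal, 2 immune and 1 tumour member, where the same rule called 3.13%, 4.3%, 3.85%, 2.94%, 3.82% and 1.79% of all genes. Of the 53 members, 11 had fewer than 100 UMIs in the whole matrix, among them Plxnb3, Sema4f, Epha10 and Epha5.

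**Figure D1:**
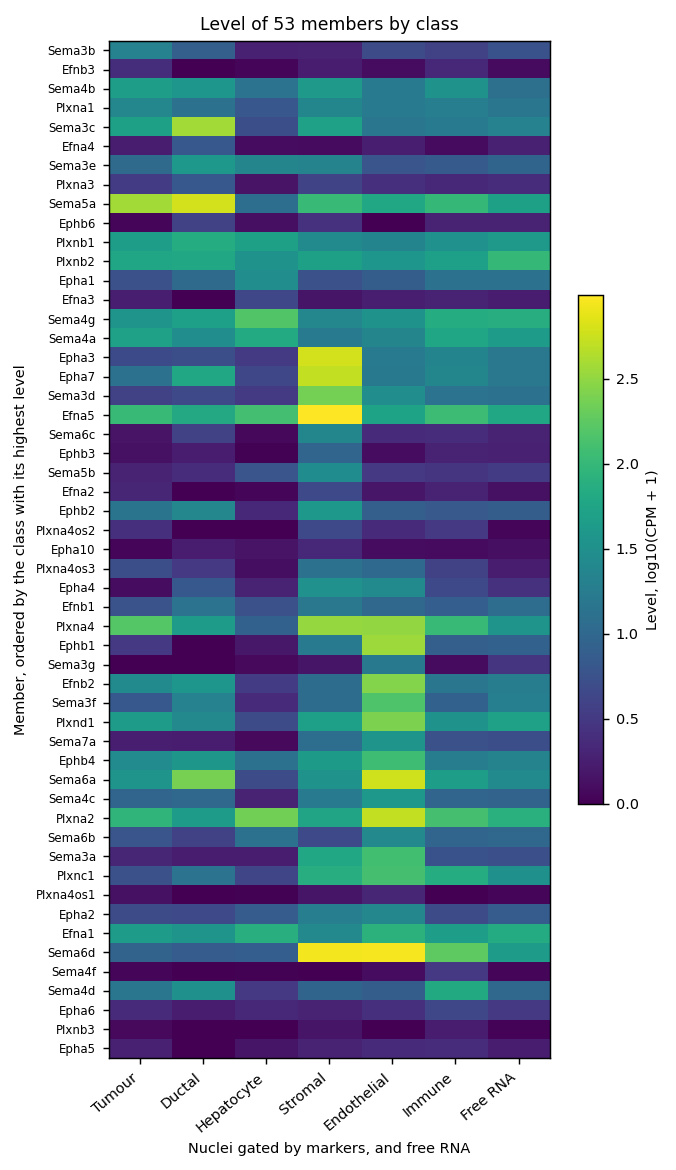
Levels of the 53 members, as log10(CPM + 1), in the 6 classes of nuclei and in free RNA. Rows are ordered by the class with the highest level. Epha3, Epha7, Sema3d and Efna5 stand out in stromal nuclei, Ephb1, Efnb2 and Sema3f in endothelial nuclei, and Sema3c and Sema5a in ductal nuclei.

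**Figure D2:**
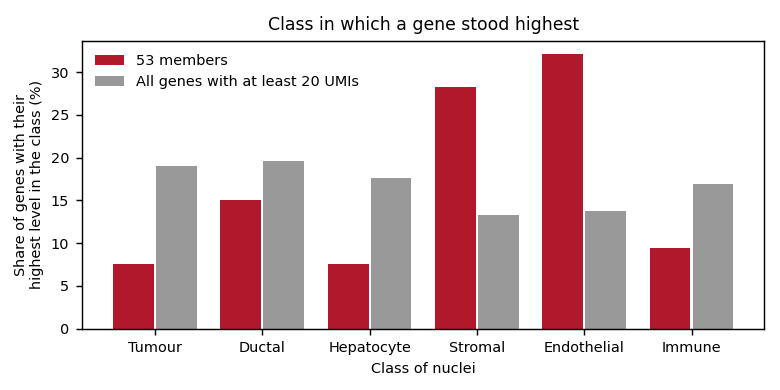
Share of the 53 members (red) and of all 19683 genes with at least 20 UMIs (grey) whose highest level lay in each class. Endothelial and stromal nuclei took 32.1% and 28.3% of the members, against 13.7% and 13.3% of all genes.

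Tumour nuclei carried several guidance genes that hepatocyte nuclei nearly lacked. By at least 2-fold (log2 ratio of 1 or more with a pseudocount of 1 CPM), 19 of 53 members (35.8%) were higher in tumour than in hepatocyte nuclei, against 18.2% of all genes. A further 7 (13.2%) were lower by as much, against 10.6% of all genes. The median log2 ratio was 0.38 over the members and 0.20 over all genes. The 19 were 8 of 20 semaphorins, 4 of 9 plexins, 2 of 5 EphB receptors, 2 of 3 ephrin-B ligands, 1 of 8 EphA receptors and 2 of the 3 antisense transcripts. No ephrin-A ligand was among them. Of the 6 classes, hepatocyte nuclei were the lowest for Sema5a, Plxna4, Sema3b, Sema3c, Plxnd1 and Efnb2, though not for Efnb3. Plxna4 ran from 43.9 to 333 CPM in the other classes, against 7.41 CPM in hepatocyte nuclei. Ductal nuclei too stood at least 2-fold above hepatocyte nuclei for 23 members (43.4%), against 21.8% of all genes. They were lower for 8 (15.1%), against 10.5%. A level above hepatocyte nuclei was thus not particular to tumour nuclei.

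Among the ligands, Sema5a, a membrane semaphorin with thrombospondin repeats, led. It stood at 382 CPM (371 to 394) in tumour and 10.9 CPM (9.65 to 12.3) in hepatocyte nuclei, a 35.0-fold difference (30.9 to 39.7). Of the 264 hepatocyte UMIs, 157 came from the 91 gated nuclei outside clusters 3, 14 and 18, the hepatocyte clusters of a clustering made without the members. In the 1127 nuclei inside them Sema5a stood at 4.81 CPM, and tumour nuclei were 79.4-fold higher (65.6 to 97.1). Free RNA held 49.8 CPM of it, above the hepatocyte level and below the tumour level. At 2000 UMIs per nucleus, 37.4% of 1207 tumour nuclei held a Sema5a UMI (34.7 to 40.2, exact Clopper-Pearson), against 1.32% of 1212 hepatocyte nuclei (0.756 to 2.13), where 6 shallower nuclei of each class were left out. Without thinning the shares were 59.2% and 8.7%.

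Secreted class 3 semaphorins, which repel or attract axons and endothelial cells, followed. Sema3b had 20.3 CPM in tumour and 0.87 CPM in hepatocyte nuclei (23.3-fold; 14.9 to 38.5), and was the 1 member that stood at least 2-fold above every other class in tumour nuclei. Sema3c had 48.7 CPM in tumour and 4.18 CPM in hepatocyte nuclei (11.6-fold; 9.40 to 14.5). Sema3f was also higher, with 5.66 CPM in tumour and 1.28 CPM in hepatocyte nuclei, but free RNA held 18.8 CPM. The membrane-bound Sema6a, Sema4c, Sema4d and Sema4b stood 8.65-fold, 8.59-fold, 6.47-fold and 3.54-fold higher, and Sema6a 13.4-fold higher without the 91 nuclei outside the hepatocyte clusters.

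Of the receptors, Plxna4, which binds class 6 semaphorins and pairs with neuropilins for class 3, had 160 CPM (153 to 168) in tumour and 7.41 CPM (6.36 to 8.58) in hepatocyte nuclei, a 21.6-fold difference (18.5 to 25.4). Of the 179 Plxna4 UMIs in hepatocyte nuclei, 85 came from the 91 nuclei outside the hepatocyte clusters, and without those nuclei the difference was 37.9-fold (30.8 to 47.1). Its antisense transcripts Plxna4os3 and Plxna4os2 lie within the gene on the other strand. Plxna4os3 had 4.22 CPM in tumour and 0.29 CPM in hepatocyte nuclei, where 6 of its 7 UMIs lay outside the hepatocyte clusters. Plxna4os2 had 1.62 CPM in tumour nuclei, where hepatocyte nuclei had no UMI, so that it stood at least 13-fold higher against a floor of 3 UMIs over the class. Whether strand was used in the counting is unknown here, so reads of Plxna4 and its antisense genes may be shared. Plxnd1, the receptor that binds Sema3e without a neuropilin, had 42.8 CPM in tumour and 4.02 CPM in hepatocyte nuclei, and free RNA held 50.7 CPM. Plxna1 (23.5 and 5.46 CPM in tumour and hepatocyte nuclei) and Plxna3 (2.42 and 0.46 CPM in tumour and hepatocyte nuclei) were also higher, by 4.31-fold and 5.32-fold.

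The ephrin and Eph side was narrower. Efnb2, which encodes ephrin-B2, had 26.1 CPM in tumour and 2.36 CPM in hepatocyte nuclei (11.1-fold; 8.31 to 15). Ephb2, an ephrin-B receptor known from the intestinal crypt, had 13.2 CPM in tumour and 1.20 CPM in hepatocyte nuclei (11-fold; 7.34 to 17). Only 1.49% of thinned tumour nuclei held an Ephb2 UMI (0.886 to 2.35), against 0.165% of hepatocyte nuclei (0.0200 to 0.595). The share was higher in stromal nuclei, at 5.48% (4.13 to 7.11). It was 1.69% in ductal (0.551 to 3.90), 1.01% in endothelial and 0.795% in immune nuclei. Without thinning, 56 of 1213 tumour nuclei and 20 of 1218 hepatocyte nuclei held an Ephb2 UMI. Epha7 had 11.9 CPM in tumour and 3.35 CPM in hepatocyte nuclei, with 15 CPM in free RNA, and was 3.56-fold higher, or 6.18-fold without the 91 nuclei outside the hepatocyte clusters. Ephb4 stood 2.19-fold higher in tumour nuclei and Efnb3 rested on 16 tumour UMIs and 3 hepatocyte UMIs. In all, 16 of the 19 higher members reached or passed their free RNA level in tumour nuclei, and Plxnd1, Sema3f and Epha7 did not. Of all 53 members, 26 did so. The 19 were chosen for a higher level in tumour nuclei, so this count alone says little about them. With free RNA subtracted at the haemoglobin share of each class, 20 members were higher, against 20.7% of all genes.

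The 7 members lower in tumour than in hepatocyte nuclei were all at or above their free RNA level in hepatocyte nuclei. Of all 53 members, 14 were. The 7 were chosen for a higher level in hepatocyte nuclei, so this count alone says little about them. Epha1, the first Eph receptor to be cloned, had 4.49 CPM in tumour and 28.7 CPM in hepatocyte nuclei, 6.39-fold lower (4.79 to 8.69). Sema4g had 34.0 CPM in tumour and 149 CPM in hepatocyte nuclei, 4.37-fold lower (3.93 to 4.87). Plxna2, a receptor for class 6 semaphorins, had 90.6 CPM in tumour and 227 CPM in hepatocyte nuclei, 2.50-fold lower (2.34 to 2.68). Sema5b, Efna3, Sema6b and Sema3e were lower by 5.24-fold, 4.15-fold, 2.32-fold and 2.20-fold. Sema4a, a membrane semaphorin highest in hepatocyte nuclei, had 51.2 CPM in tumour and 66.7 CPM in hepatocyte nuclei. It and the other 26 members differed by less than 2-fold on this scale, among them Plxnb1 with 45.6 CPM in tumour and 49.4 CPM in hepatocyte nuclei, and Plxnb2 with 57.2 CPM in tumour and 33.0 CPM in hepatocyte nuclei, beside 96.7 CPM in free RNA.

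Markers of nerve and Schwann cells, in which many of these genes are used, were read beside these values. S100b stood at 43.5 CPM in tumour and 1.86 CPM in hepatocyte nuclei, with 22.1 CPM in free RNA. Sox10, a defining factor of Schwann cells, had 7 UMIs (0.63 CPM) in tumour nuclei and none in hepatocyte nuclei. Cdh19 had 0.81 CPM in tumour and 0.083 CPM in hepatocyte nuclei. Their part in the result was not tested.

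**Figure D3:**
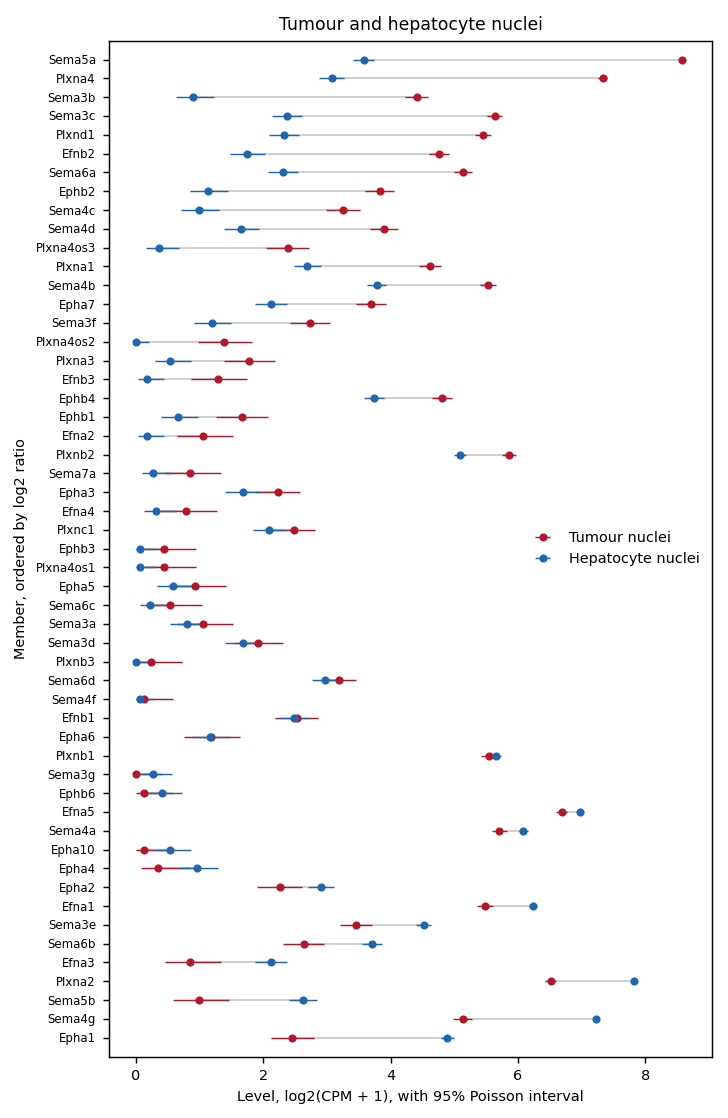
Levels of each member as log2(CPM + 1) in tumour (red) and hepatocyte (blue) nuclei with 95% Poisson intervals, ordered by the log2 ratio. Sema5a and Plxna4 show the widest gaps on the tumour side, with 382 against 10.9 CPM and 160 against 7.41 CPM, and Epha1 and Sema4g on the hepatocyte side.

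Against ductal nuclei, gated by genes of the cells that line bile ducts, the tumour shared Sema5a and differed in other ligands. Ductal nuclei also carried some genes of the tumour lists above free RNA. Ccnd3, Peg3, Gpc3 and Dclk1 stood at 5725, 587, 297 and 183 CPM in them, against 824, 217, 68.1 and 29.4 CPM in free RNA. Slc8a3, Igf2bp3 and Slc6a20a were above it too, at 97.7, 19.1 and 17.7 CPM, against 31.9, 3.64 and 1.40 CPM in free RNA. Spink1, Kcnj16 and Eps8l3 stood at 10.6, 9.20 and 6.37 CPM in ductal nuclei, against 5.78, 5.12 and 3.72 CPM in free RNA. H19, Igf2, Afp and Grm3 of the same lists stayed below free RNA in ductal nuclei. The remaining genes of these lists are not given here. Whether some ductal nuclei belong to the tumour was not tested. At least 2-fold higher in tumour than ductal nuclei were 7 of 53 members, or 13.2%, against 7.87% of all genes, and 12 members (22.6%) were lower, against 10.6%. Sema5a itself had 382 CPM in tumour and 606 CPM (567 to 648) in ductal nuclei. Plxna4 was 3.65-fold higher (2.83 to 4.78) with 160 CPM in tumour and 43.9 CPM in ductal nuclei, Sema3b 2.87-fold and Plxna2 2.07-fold higher. For the other 4, Ephb1, Plxna4os2, Efnb3 and Efna2, ductal nuclei had no UMI and tumour levels were 2.16, 1.62, 1.44 and 1.08 CPM, where 3 UMIs over the ductal class would be 2.12 CPM, so no fold is given.

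The lower members were led by ligands. Sema3c had 48.7 CPM in tumour and 376 CPM (344 to 409) in ductal nuclei, 7.72-fold lower (6.84 to 8.72). Sema6a, a membrane ligand of Plxna2 and Plxna4, had 34.4 CPM in tumour and 237 CPM (212 to 264) in ductal nuclei, 6.89-fold lower. Epha7, a receptor for ephrin-A5, had 11.9 CPM in tumour and 59.4 CPM in ductal nuclei, 4.98-fold lower. Sema3e, Sema3f, Plxnc1, Efnb1 and Sema4d were 3.83-fold, 3.63-fold, 2.78-fold, 2.68-fold and 2.24-fold lower, and Epha4, Efna4, Ephb6 and Sema6c rested on at most 8 UMIs in either class. Ductal Ephb2, at 23.4 CPM, came from 33 UMIs in 6 of 305 nuclei, and 1 nucleus held 23 of them. In the main ductal cluster Ephb2 stood at 1.94 CPM.

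The 2 kinds of tumour nuclei differed in several members. Of 53, 9 (17%) were at least 2-fold higher in Pkhd1-high than in hepatocyte-like tumour nuclei, against 7.85% of all genes, and 8 (15.1%) were lower, against 10.4%. Efna5, which encodes the lipid-anchored ephrin-A5, had 126 CPM in Pkhd1-high and 19.5 CPM in hepatocyte-like nuclei, 6.49-fold higher (4.49 to 9.74). Sema3e had 12.7 CPM in Pkhd1-high nuclei and a lone UMI in hepatocyte-like nuclei, for a ratio of 18.9 with a wide interval of 3.32 to 754. Epha7, Sema3f, Efnb2, Sema3b, Plxna1 and Plxna4 stood 6.66-fold, 5.04-fold, 3.09-fold, 3.05-fold, 2.30-fold and 2.02-fold higher, with 3 and 2 hepatocyte-like UMIs behind Epha7 and Sema3f. Ephb1 had 22 UMIs in Pkhd1-high nuclei and 1 UMI in hepatocyte-like nuclei. Most tumour UMIs of Efna5, Sema3e and Epha7 lay in 201 tumour nuclei of Hmga2-high clusters, which are described below. Those nuclei held 988, 99 and 103 of these UMIs, against 148, 12 and 30 in the other 1012 tumour nuclei. Hmga2 is itself a marker of the Pkhd1-high list.

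Ephb2 ran the other way, with 3.20 CPM in Pkhd1-high and 52.4 CPM in hepatocyte-like tumour nuclei, 16.3-fold lower (10.4 to 26.3). Epha1 had 2.49 CPM in Pkhd1-high and 16.8 CPM in hepatocyte-like nuclei, 6.73-fold lower (3.62 to 12.6), and Sema4g had 28 CPM in Pkhd1-high and 79.2 CPM in hepatocyte-like nuclei. Both were also among the 7 members lower in tumour than in hepatocyte nuclei. Efna1, a ligand of EphA1 and EphA2, was 2.49-fold lower with 36.9 CPM in Pkhd1-high and 92.0 CPM in hepatocyte-like nuclei, beside 68.9 CPM in free RNA. Sema6a, Sema6b, Sema3d and Epha3 were 2.35-fold, 2.45-fold, 2.68-fold and 3.77-fold lower, the last of them only in the nuclei gated 1 by 1 and not when classes were taken from clusters.

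Clustering without the members placed the gated tumour nuclei in several clusters, whose numbers are names only. Clusters 12 and 16 were high in Hmga2, at 624 and 701 CPM, against 2.66 to 57.4 CPM in the other tumour clusters, and both Hmga2 and Zfp804a were gate markers. This split was made after the values were seen. In the 201 tumour nuclei of these clusters Sema5a stood at 23.5 CPM (17.4 to 30.9), against 467 CPM (453 to 481) in the other 1012 tumour nuclei, 19.9-fold lower (15.1 to 26.9). Efna5 was the reverse, with 464 CPM (435 to 494) against 16.4 CPM (13.9 to 19.3), 28.2-fold higher (23.7 to 33.8). The receptor Plxna4 stood at 402 CPM in the Hmga2-high nuclei and 103 CPM in the others (3.91-fold; 3.56 to 4.29).

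Other ligands and receptors differed in both directions between these nuclei. Sema3e, Epha7, Efnb2 and Sema3c stood 34.9-fold, 14.5-fold, 6.11-fold and 2.03-fold higher in Hmga2-high nuclei. Sema3e came from cluster 16, at 65.0 CPM, against 3.13 CPM (2 UMIs) in cluster 12, and cluster 20, outside the Hmga2-high nuclei, had 28.7 CPM (5 UMIs). Sema3c, at 73.5 and 86.5 CPM in clusters 12 and 16, reached 117 CPM in cluster 10 among the other tumour nuclei. Ephb2, Sema6a and Sema3b stood 17.2-fold, 8.83-fold and 8.68-fold lower, from 2, 10 and 6 UMIs. In single tumour nuclei, 718 of 1213 held a Sema5a UMI and 220 an Efna5 UMI, and 74 held both. Efna5 was detected in 10.3% of nuclei with Sema5a and in 29.5% of those without, although the nuclei with Sema5a were deeper, with a median of 8608 against 7622 UMIs.

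By cluster, Sema5a had 478 CPM in cluster 2 (Dclk1, Slc8a3), 424 in cluster 10, 855 in cluster 23 and 380 in cluster 9 (H19, Igf2, Afp). In clusters 12, 16 and 20 it had 15.6, 26.8 and 63.2 CPM, and cluster 20 held 17 gated nuclei. Ephb2 was concentrated in cluster 9, with 76.3 CPM (61.1 to 94.3) there and 5.56 CPM in cluster 2, a 13.7-fold difference (9.13 to 21.1). Cluster 9 also held the highest tumour levels of Epha1 (18.6 CPM) and Sema4g (83.4 CPM), both of which were high in hepatocyte nuclei. Sema3e stood at 65.0 CPM in cluster 16 and at 0.65 CPM in cluster 2, with at most 5 UMIs in any other tumour cluster.

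Hepatocyte and ductal nuclei were not uniform either. In hepatocyte nuclei Plxna2 ran from 358 CPM (347 to 370) in cluster 3, which is high in Sds, through 141 CPM in cluster 14 to 27.4 CPM (22.1 to 33.5) in cluster 18, which is high in Slc1a2 at 2781 CPM. Slc1a2 marks the hepatocytes next to the central vein and Sds those near the portal vein. Plxna2 was thus 13.1-fold higher in the Sds-high than in the Slc1a2-high cluster (10.7 to 16.2), while Efna5 ran the other way, with 88.1, 141 and 191 CPM in clusters 3, 14 and 18. Sema3e followed Efna5 with 14.7, 25.9 and 43.1 CPM. Sema4g, at 141 to 161 CPM, and Epha1, at 27.4 to 30.1 CPM, were level across these clusters.

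Set against hepatocyte nuclei, ductal nuclei were higher for many members: 23 of 53 members (43.4%) stood at least 2-fold higher, against 21.8% of all genes, and 8 (15.1%) lower, against 10.5%. Sema3c, Sema6a and Sema5a stood 89.9-fold, 59.6-fold and 55.5-fold higher, and 111-fold, 92.5-fold and 126-fold without the 91 hepatocyte nuclei outside the hepatocyte clusters. Among ductal nuclei, cluster 5 (251 gated nuclei, high in Asz1) and cluster 22 (23 gated nuclei, high in Cftr and Spp1) both held Sema5a, at 581 and 497 CPM, and Sema3c, at 438 and 294 CPM. They differed in Efna5, with 455 CPM (351 to 580) in cluster 22 and 13.6 CPM (7.41 to 22.7) in cluster 5. Sema3e, at 210 and 21.3 CPM in clusters 22 and 5, and Efnb2, at 119 and 30.02 CPM, were higher in cluster 22 as well.

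**Figure D4:**
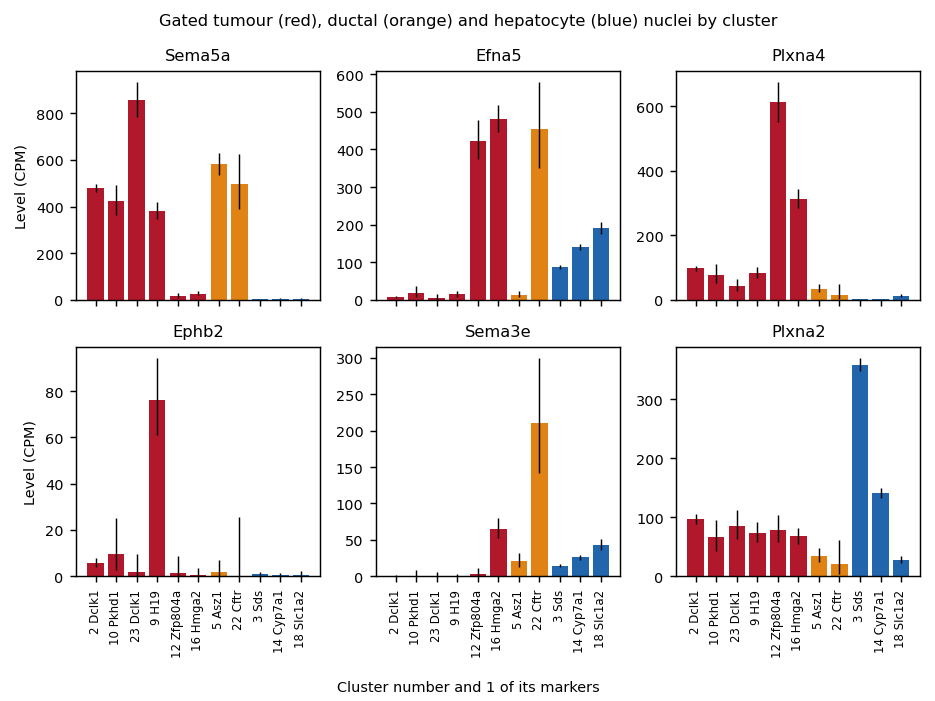
Levels in CPM with 95% Poisson intervals of 6 members in gated tumour (red), ductal (orange) and hepatocyte (blue) nuclei by cluster, each cluster named by its number and 1 of its markers. Sema5a is low and Efna5 high in the Hmga2-high tumour clusters 12 and 16, Ephb2 stands at 76.3 CPM in the H19-high cluster 9, and Plxna2 is highest in the Sds-high hepatocyte cluster 3.

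Endothelial nuclei led for 17 members, ligands and receptors among them, against 15 in stromal nuclei. With at most 1% mitochondrial UMIs, or with 4 markers required, each of these 2 classes led for 17. Ephb1 was highest in endothelial nuclei with 355 CPM (336 to 375), against 16.5 CPM in stromal nuclei as the second class, 2.16 CPM in tumour and none in ductal nuclei. Its ligand Efnb2 had 276 CPM (260 to 294) in endothelial nuclei, 7.65-fold above ductal nuclei, and its receptor Ephb4 had 115 CPM. At 2000 UMIs per nucleus 39.3% of endothelial nuclei (35.6 to 43.0) held an Ephb1 UMI, against 0.249% of tumour nuclei, at the floor of 3 nuclei. Unthinned, 64.0% of the 367 endothelial nuclei with Efnb2 also held Ephb1, against 33.3% of those without, where median depths were 4485 and 3379 UMIs. These shares pool the 3 endothelial clusters described below, and both genes were highest in cluster 11. Whether they go together within a cluster was not tested.

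The semaphorins of this class were Sema6a (591 CPM), Sema3f (147 CPM), Sema3a (120 CPM), Sema7a (34.9 CPM), Sema4c (38.1 CPM), Sema6b (24.7 CPM) and Sema3g (15.3 CPM). Sema6d had 904 CPM in endothelial and 864 CPM in stromal nuclei, with a ratio of 1.05 whose interval includes 1 (0.999 to 1.10), while tumour, ductal and hepatocyte nuclei stayed at 8.08, 6.37 and 6.83 CPM. Some plexins were also high in this class, with Plxna2 at 528 CPM, Plxna4 at 323 CPM, Plxnd1 at 252 CPM and Plxnc1, the receptor of Sema7a, at 128 CPM. Others were not. Plxnb2, Plxnb1, Plxna1 and Plxna3 stood at 36.8, 21.5, 15.6 and 1.61 CPM there, below their tumour levels of 57.2, 45.6, 23.5 and 2.42 CPM. Plxnb3 had no endothelial UMI. Plxna4 stood at 333 CPM in stromal nuclei, and the ratio of stromal to endothelial nuclei of 1.03 had an interval that includes 1 (0.954 to 1.11). Epha2 and Efna1 were also highest here, though their ratios to the second class, 1.30 and 1.12, had intervals that include 1.

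Within the endothelium, members separated 3 clusters. Cluster 11 (Flt1, Mecom, Emcn; 511 gated nuclei) held Ephb1 at 529 CPM, against 10.4 CPM in cluster 15, the Stab2-high nuclei of which 141 were gated, and 21.3 CPM in cluster 26 (Tek, Ptprb; 98 nuclei). Stab2 is a scavenger receptor of the liver's sinusoidal endothelium. Ephb1 was 51.0-fold (23.4 to 139) and Sema3a 49.6-fold (13.7 to 411) higher in cluster 11 than in cluster 15. Sema3a rested on 2 UMIs in cluster 15. Efnb2 at 368 against 123 CPM, Sema3f at 189 against 46.7 CPM and Sema6d at 1284 against 175 CPM followed the same order.

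The Stab2-high cluster had its own member in Plxnc1, with 591 CPM (530 to 657), against 9.06 CPM in cluster 11 and 197 CPM in cluster 26. Sema7a, its ligand, had 51.5 CPM in cluster 11 and 1.73 CPM in cluster 15. Cluster 26 held the highest Plxna4 (685 CPM), Ephb4 (237 CPM) and Epha4 (69.3 CPM) of the 3. Sema6a was spread over all 3, at 575, 807 and 626 CPM.

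Stromal and endothelial nuclei divided the members between them. At least 2-fold higher in stromal than endothelial nuclei were 13 of 53 members (24.5%), against 9% of all genes, and 13 (24.5%) were lower, against 8.25%. The 13 higher members were 6 of 20 semaphorins, 3 of 5 EphB receptors, 2 of 8 EphA receptors and 2 of 5 ephrin-A ligands. On the lower side Efnb2, Ephb1, Sema6a and Sema3f stood 26.6-fold, 21.5-fold, 17.4-fold and 14.1-fold lower in stromal nuclei, and Sema3g 32.4-fold lower (8.58 to 274) from 2 stromal UMIs.

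Efna5 had 985 CPM (955 to 1015) in stromal nuclei, 7.85-fold above hepatocyte nuclei (7.49 to 8.23), and its receptors Epha3, with 618 CPM (595 to 642), and Epha7, with 529 CPM (508 to 552), were highest in the same class. Epha3 stood 28.8-fold above immune nuclei, the second class. Tumour nuclei had 102, 3.68 and 11.9 CPM of Efna5, Epha3 and Epha7. Of 795 stromal nuclei with Efna5, 70.6% also held Epha3, against 54.5% of those without, at median depths of 3564 and 3013 UMIs. These shares pool the stromal clusters described below, which differ in both genes. Sema3d (234 CPM), Sema6c (22.9 CPM), Sema5b (27.4 CPM), Ephb3 (8.49 CPM) and Efna2 (3.54 CPM) also stood at least 2-fold above every other class. Ephb2 was highest in stromal nuclei too, at 38.4 CPM (32.8 to 44.8).

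Stromal clusters divided these members. Cluster 7 (Reln, Lrat, Ntm; 595 gated nuclei), with markers of stellate cells, held Epha7 at 868 CPM and Sema6d at 1547 CPM, against 276 and 162 CPM in cluster 8 (Col1a1, Col1a2; 320 nuclei). Cluster 8 held more Plxna4, at 507 against 204 CPM, and more Ephb2, at 72.6 against 23.7 CPM. Cluster 25 (Rgs5, Pdgfrb; 74 nuclei), with markers of pericytes, had Sema5b at 237 CPM (184 to 301) against 3.03 CPM in cluster 7, and little Efna5, at 46.0 against 1159 CPM. Cluster 28 (Myh11, Notch3; 44 nuclei), with a marker of smooth muscle, had the most Epha3, at 1259 CPM (1081 to 1457). Cluster 21 (Msln, Wt1), with markers of the liver's surface lining, held 16 gated nuclei with Efna5 at 5257 CPM, Plxna4 at 2096 CPM and Sema3c at 1883 CPM, Ephb1 at 568 CPM, and no Epha3 UMI.

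Immune nuclei led for few members. Sema4d, which binds Plxnb1 and, on immune cells, Cd72, had 64.6 CPM (57.2 to 72.7) in immune nuclei, 2.08-fold above ductal nuclei (1.51 to 2.92), and 13.9 CPM in tumour nuclei. By cluster it had 123 CPM in cluster 6 (Myo1f, Csf1r), 118 CPM in cluster 17 (Themis, Skap1) and 118 CPM in cluster 27 (Pax5, Bank1), but 24.8 CPM in cluster 13 (Clec4f, Vsig4). Plxnc1 had 71.0 CPM in immune nuclei. Sema5a at 98.4 CPM and Sema6d at 175 CPM in this class stood above their free RNA levels of 49.8 and 42.8 CPM. Cluster 13, in which markers of other classes also appear, held 117 and 270 CPM of them. Sema4f, Epha6, Epha5 and Plxnb3, with 3.30 CPM or less, made up the rest of the members highest in immune nuclei.

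**Figure D5:**
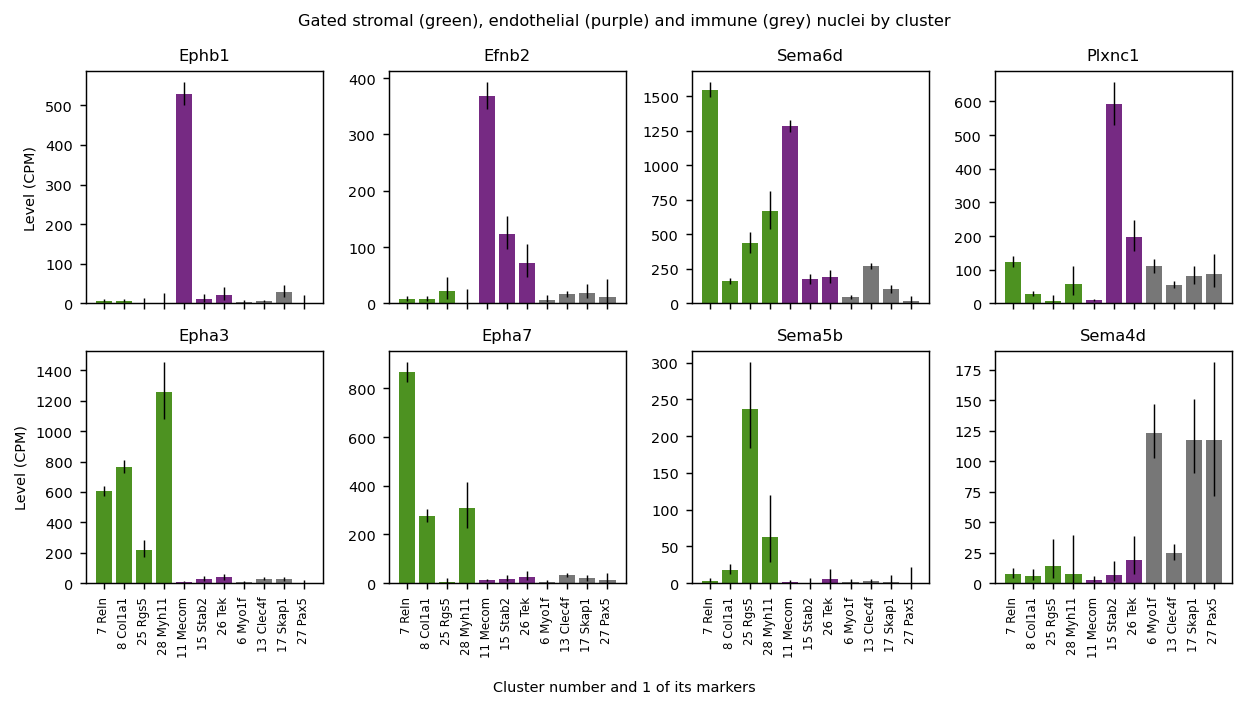
Levels in CPM with 95% Poisson intervals of 8 members in gated stromal (green), endothelial (purple) and immune (grey) nuclei by cluster, each cluster named by its number and 1 of its markers. Ephb1 stands at 529 CPM in the Mecom-high cluster 11, Plxnc1 at 591 CPM in the Stab2-high cluster 15, Sema5b at 237 CPM in the Rgs5-high cluster 25, and Sema4d is low in the Clec4f-high cluster 13.

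Neighbouring members did not all lead in the same class. Sema3d, Sema3a, Sema3e and Sema3c follow each other on chromosome 5, with gaps of 536, 423 and 3318 kb (GENCODE M21, GRCm38). Sema3d was highest in stromal, Sema3a in endothelial, and Sema3e and Sema3c in ductal nuclei. Efna1, Efna3 and Efna4 lie within 1 stretch of chromosome 3, with gaps of 32.8 and 10.4 kb, and were highest in endothelial, hepatocyte and ductal nuclei. The ratio of endothelial to hepatocyte nuclei for Efna1, 1.12, had an interval that includes 1 (0.990 to 1.26). Efna4 rested on 8 ductal UMIs. Longer genes gave more UMIs, with a Spearman rho of 0.50 between gene span and UMIs over the 53 members, which share the same libraries, and spans ran from 3.58 kb to 952 kb. Levels were therefore not compared between genes.

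Other parts of the pathway were read from a list of 43 co-receptors and effectors, of which 42 had at least 20 UMIs. In tumour over hepatocyte nuclei 9 of 42 (21.4%) were at least 2-fold higher and 5 (11.9%) lower, near the 18.2% and 10.6% of all genes. Nck2, an adaptor that binds ephrin-B tails and Eph receptors, had 158 CPM in tumour and 6.42 CPM in hepatocyte nuclei (24.6-fold; 20.8 to 29.1). The exchange factors Vav3 and Tiam1 stood 9.93-fold and 7.92-fold higher. Adam10, a protease that cleaves ephrins, had 395 CPM in tumour and 125 CPM in hepatocyte nuclei. Nrp2, the neuropilin of Sema3f, had 70.0 CPM in tumour and 22.5 CPM in hepatocyte nuclei, whereas Nrp1, that of Sema3a, had 79.6 CPM in tumour and 348 CPM in hepatocyte nuclei. Ngef, an exchange factor that EphA receptors act on, was 4.78-fold lower in tumour nuclei. The class highest most often for these genes was the endothelium, for 17 of the 42 genes, against 13.7% of all genes. Nrp1 reached 642 CPM there.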

How the data were processed

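Gene counts per barcode (UMIs) are as deposited, with no normalization. Cell Ranger 5.0 and mm10 are named in the submitters' processing notes, and the headers name version 5.0.0 for the processed matrix and 4 for the unfiltered one. No label or header says how the 2 samples were combined or whether the matrix holds both. It held 17169 barcodes and 95130408 UMIs, with 891 to 125991 UMIs per barcode (median 2794).

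Barcodes under 500 UMIs or 300 genes, or with over 5% mitochondrial UMIs, were dropped, 758 in all. Free RNA came from uncalled barcodes with 500 to under 850 UMIs. This range lies close below the lowest called barcode, at 891 UMIs, and whether it holds some nuclei was not tested. Nuclei were gated by 98 markers in 7 lists. Raw UMIs were summed per class and scaled to CPM with exact Poisson intervals, ratios had exact intervals and shares Clopper-Pearson intervals. A 2-fold difference on the log2 scale used a pseudocount of 1 CPM. Clusters (Leiden, leidenalg 0.10.2, resolution 1, 30 components, 15 neighbours, 2000 variable genes, scanpy 1.11.5, Python 3.11.15) were built without the members, and cluster levels use gated nuclei of clusters with at least 15 of them. A cluster took a class when at least 5% of its nuclei were gated, most of them to that class. Scripts were tested on simulated data.

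The members, markers and lists were chosen with earlier results of these data known, and the gate's thresholds were set after the files were read. Named genes were the 2 markers given with the members, up to 5 members per class ordered by the ratio to the second class, the 6 highest and 6 lowest ratios of tumour over hepatocyte, of tumour over ductal and of the 2 kinds of tumour nuclei, and textbook partners of these. Further members and the cluster contrasts were named after their values were seen. Some markers of the nerve and Schwann list are not reported here.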

Additional observations from a re-analysis of the deposited data

How the results depend on the processing

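The count of members highest in stromal or endothelial nuclei was 31 to 34 of 53 where all 53 members were kept, against 32 as reported, while 24.4% to 32.3% of all genes were highest there, against 27% as reported. It was 32 of 54 with no filter on genes, and 27 of 42 with at least 100 UMIs per gene, where 2 members were highest in immune nuclei. The counts between tumour and hepatocyte nuclei depended on the pseudocount: 0.1 CPM gave 27 higher and 11 lower members, against 27.1% and 14.6% of all genes, and 10 CPM gave 10 higher and 3 lower, against 7.7% and 6.26%, since a larger pseudocount removes genes of low level. The other alternatives gave 17 to 21 higher and 6 to 8 lower members. With size factors the median log2 ratio over all genes was 0.03 in place of 0.20, and the counts were 18 and 8, against 15.03% and 13.5% of all genes. With classes taken from clusters, 2 ratios changed sign: Efnb3 in tumour over ductal nuclei stood at -0.12, and Epha3 in Pkhd1-high over hepatocyte-like tumour nuclei at 1.03, and the cause was not tested. Of the other ratios of named members over the alternatives 76 moved by more than their counting interval and 498 did not. Of the levels of named members in each class, 367 moved outside their counting interval over the alternatives and 3281 did not. A mean over nuclei, an immune class without cluster 13, hepatocyte nuclei of the hepatocyte clusters only and the haemoglobin share were chosen after seeing the data. No paired analysis was possible because barcodes do not name their sample. For that reason no sample could be left out in turn.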
